A study of Homo sapiens with 8 samples.

Results

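BASP1, CNTNAP2, RTN1, PNMA2, TUBB2B, TUBB3, STMN1, MARCKS, UCHL1 and ENO2 are 10 genes whose products build or mark the neuronal cytoskeleton, membrane and growth cone, and their levels were followed in a human prostate cancer cell line and in cells derived from it. They were chosen by measured differences between the groups on these same arrays, and every array feature (probe) that the platform annotation gives to 1 of them was kept. This gave 16 probes of 47320 on the array and 10 of 20046 annotated genes. Because these values chose the genes, their levels and differences are given as a description with no test.

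RNA levels were read on single-colour Illumina bead arrays from 8 samples of total RNA in 4 groups of 2. 22Rv1 is an established line from a human prostate carcinoma, and all 4 groups stem from this single line. The group called Luc2 is the parental line under the name 22Rv1-Luc2, PT (22Rv1-PT) is a primary tumour derivative, and M3-1 and M3-2 (22Rv1-M3-1 and 22Rv1-M3-2) are a pair of metastatic derivatives. The derivatives came from propagation of 22Rv1 in living animals, and neither the host, the metastatic sites nor how many animals were used is given in the sources used here. Each derivative is 1 line, so its 2 arrays carry the spread within a line and not between lines. The labels do not state whether a group's 2 arrays stem from different cultures or animals. The p-values below thus take in only how far these arrays differ, and that spread may be technical. In bulk RNA, fewer cells that express a gene and less of its RNA per cell cannot be told apart.

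Neurons extend axons by adding tubulin to microtubules behind a motile tip, the growth cone. Tubulin dimers of alpha and beta chains form the polymer, stathmins bind free dimers, and microtubule-associated proteins hold the polymer together. BASP1 and MARCKS are lipid-anchored proteins of the inner plasma membrane that bind phosphoinositides and actin and are, with GAP43, major proteins of growth cones. Neuroendocrine tumours, those of the prostate included, use several of these genes, and ENO2 (neuron-specific enolase) and UCHL1 serve as their markers.

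Promoters of 9 of the 10 genes were read from RefSeq (GRCh38.p14), as the 250 bases before and 50 after each gene's start. Shown here are those of BASP1 and CNTNAP2, the genes with the widest spread between groups but different patterns, and those of RTN1 and TUBB2B, whose levels followed each other over the 8 arrays. The window of BASP1 is chr5:17216573-17216872 (plus strand), that of CNTNAP2 chr7:146116551-146116850 (plus strand), that of TUBB2B chr6:3227604-3227903 (minus strand) and that of RTN1, at the outermost of its annotated starts, chr14:59870727-59871026 (minus strand). Each is written 5′ to 3′ on the strand of the gene, and capitals mark the GC box, GGGCGG on either strand.
BASP1 promoter: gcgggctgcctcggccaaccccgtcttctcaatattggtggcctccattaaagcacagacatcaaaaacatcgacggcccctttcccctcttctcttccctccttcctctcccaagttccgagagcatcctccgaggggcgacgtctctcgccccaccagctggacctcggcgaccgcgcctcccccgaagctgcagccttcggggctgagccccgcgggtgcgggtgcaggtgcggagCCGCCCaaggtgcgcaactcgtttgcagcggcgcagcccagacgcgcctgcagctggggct
CNTNAP2 promoter: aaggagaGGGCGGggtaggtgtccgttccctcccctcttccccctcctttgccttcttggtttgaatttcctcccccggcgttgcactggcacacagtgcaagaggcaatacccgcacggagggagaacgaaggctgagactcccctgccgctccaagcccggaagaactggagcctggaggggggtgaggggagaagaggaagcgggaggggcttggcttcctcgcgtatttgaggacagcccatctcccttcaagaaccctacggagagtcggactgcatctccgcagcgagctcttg
TUBB2B promoter: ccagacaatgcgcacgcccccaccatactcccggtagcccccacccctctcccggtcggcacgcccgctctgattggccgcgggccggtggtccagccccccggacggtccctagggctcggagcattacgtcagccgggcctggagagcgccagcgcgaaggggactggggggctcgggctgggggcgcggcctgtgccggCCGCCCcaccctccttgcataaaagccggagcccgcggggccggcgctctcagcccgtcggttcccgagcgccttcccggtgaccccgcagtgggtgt
RTN1 promoter: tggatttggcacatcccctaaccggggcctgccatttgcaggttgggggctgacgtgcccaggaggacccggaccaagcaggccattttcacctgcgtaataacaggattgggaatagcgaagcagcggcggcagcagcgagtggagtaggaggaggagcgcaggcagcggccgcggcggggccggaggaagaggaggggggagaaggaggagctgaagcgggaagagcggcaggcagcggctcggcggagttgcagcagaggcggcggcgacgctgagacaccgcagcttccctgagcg

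These windows hold 27 CpG in BASP1, 16 in CNTNAP2, 34 in TUBB2B and 25 in RTN1, where the median over 35116 RefSeq promoters of the same length is 14. BASP1, CNTNAP2 and TUBB2B each have 1 GC box, which 45.0% of all promoters hold on either strand, and this RTN1 window has 0. RE1 is the element bound by REST, the repressor of neuronal genes. Its left part was searched as TTCAGCACC on both strands and was in 0 of the windows printed here, against 0.376% of all promoters. A match is a description of letters, and the absence of one says only that these letters are not in the window.

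Levels are given as deposited log2 intensities, in the order replicate 1, replicate 2. A probe on this array lies at background when it is at or below 6.55, a level taken from the distribution of dim probes. Of the 16 member probes, 12 from 9 genes were above it on at least 2 arrays. Differences are log2 differences between group means with the standard error (SE) of a linear model fitted with limma to all 8 arrays. Dim probes read near 6.12, the mode of all values, and not near 0, so folds of dim probes may be understated.

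BASP1 had the widest spread of the group means among these genes, and no pair of groups overlapped. Its probe read 10.40 and 10.63 in Luc2, 11.69 and 11.86 in PT, 7.62 and 7.59 in M3-1, and 9.83 and 9.60 in M3-2. PT was therefore the highest group, followed by Luc2 and M3-2, with M3-1 the lowest by a wide margin. PT lay above Luc2 by 1.26 ± 0.14 (SE, n = 2 arrays a group, as throughout), a fold of 2.39. M3-1 lay below Luc2 with a log2 difference of -2.91 ± 0.14, a 7.51-fold lower level, and below PT by 18.0-fold. In M3-2 the difference from Luc2 was -0.80 ± 0.14, and the 2 metastatic lines differed from each other by 2.11 ± 0.14 or 4.32-fold, M3-2 being the brighter.

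MARCKS, the other membrane and actin-binding protein of this kind, moved little. It read 12.11 and 12.06 in Luc2, 12.38 and 12.44 in PT, 12.44 and 12.28 in M3-1, and 12.50 and 12.51 in M3-2. Both arrays of each derivative were brighter than both Luc2 arrays. The differences from Luc2 were 0.33 in PT, 0.27 in M3-1 and 0.42 in M3-2, each ± 0.12 (SE).

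CNTNAP2 encodes CASPR2, a neurexin-like adhesion protein that gathers potassium channels beside the nodes of Ranvier. Its probe read 9.24 and 9.05 in Luc2 and 9.25 and 9.27 in PT, against 6.55 and 6.70 in M3-1 and 6.52 and 6.38 in M3-2. Luc2 and PT differed by 0.11 ± 0.13, and both metastatic lines sat at the edge of background: 1 of 2 M3-1 arrays and 0 of 2 M3-2 arrays were above it. The log2 difference from Luc2 was -2.53 ± 0.13 in M3-1, a 5.76-fold lower level. In M3-2 only a bound can be given, at least 6.05-fold lower than Luc2, with measured means of 6.45 and 9.15. CNTNAP2 and BASP1 thus differed in PT, where BASP1 lay above Luc2, and in M3-2, where CNTNAP2 was at background and BASP1 was not.

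**Figure D1:**
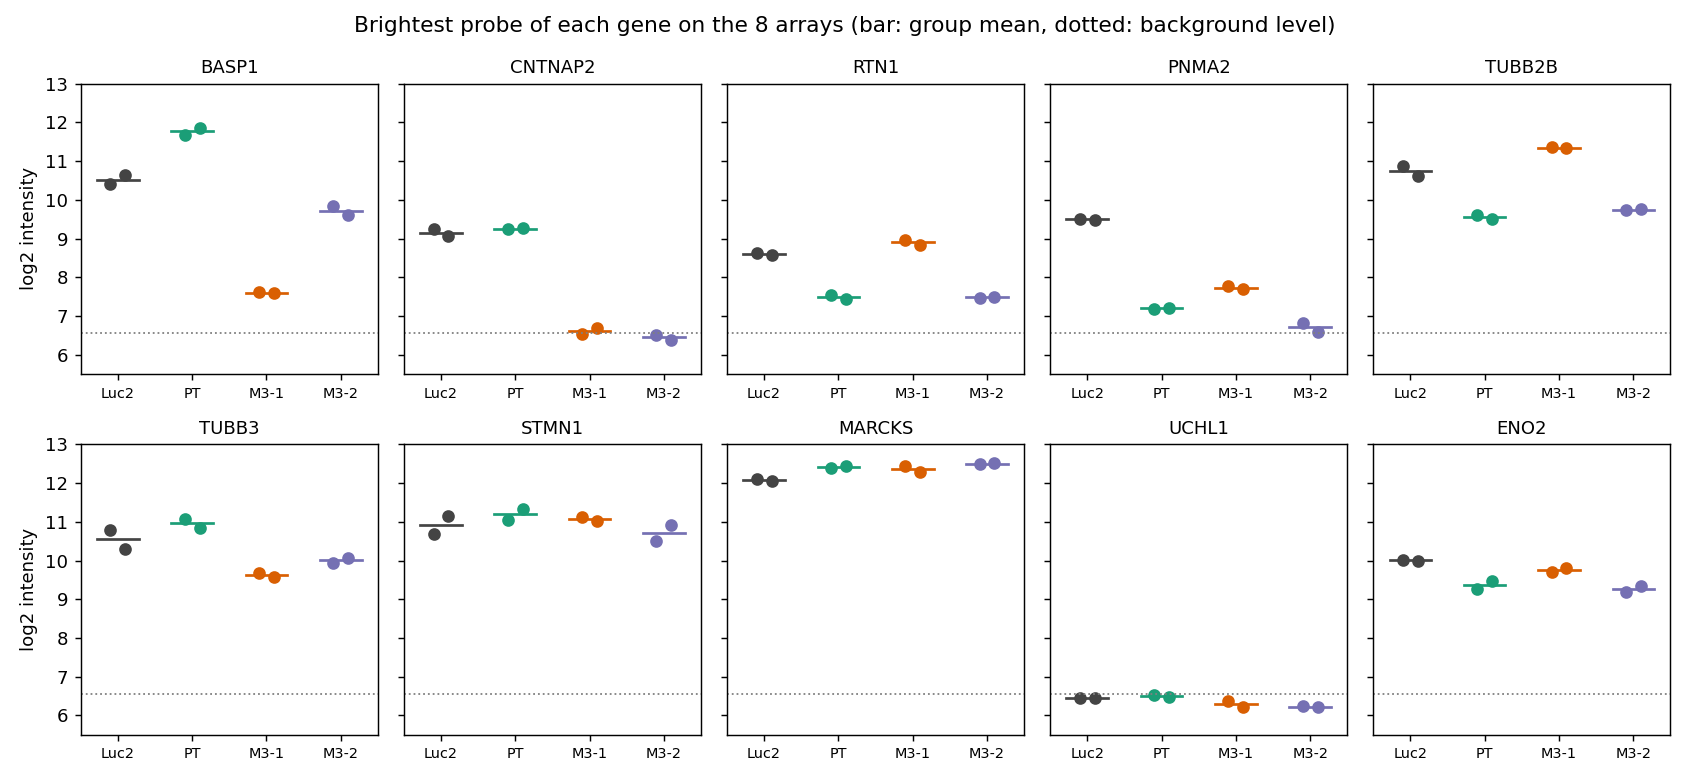
Log2 intensity (y axis) of the brightest probe of each of the 10 genes in the groups Luc2, PT, M3-1 and M3-2 (x axis). Points are the 2 arrays of a group, bars the group mean and the dotted line the background level of 6.55. BASP1 is highest in PT (11.69 and 11.86) and lowest in M3-1 (7.62 and 7.59), CNTNAP2 falls to the background level in M3-1 and M3-2, and UCHL1 lies at background on every array.

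TUBB2B and TUBB3 are beta-tubulin isotypes that developing neurons use. TUBB2B read 10.88 and 10.61 in Luc2, 9.61 and 9.50 in PT, 11.36 and 11.34 in M3-1, and 9.73 and 9.75 in M3-2. No 2 groups overlapped, and the metastatic lines lay on opposite sides of Luc2. M3-1 was above Luc2 by 0.60 ± 0.13, while PT and M3-2 differed from it by -1.19 ± 0.13 and -1.01 ± 0.13. M3-2 lay 3.05-fold below M3-1. TUBB2A is a near-identical copy, so the TUBB2B probe may also read its transcript, and values of either gene are uncertain to that extent.

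TUBB3 had another order. It read 10.79 and 10.31 in Luc2, 11.08 and 10.85 in PT, 9.67 and 9.59 in M3-1, and 9.95 and 10.06 in M3-2. Both metastatic lines lay below all Luc2 and PT arrays, with differences from Luc2 of -0.92 ± 0.16 in M3-1 and -0.54 ± 0.16 in M3-2. PT stood above Luc2 by 0.41 ± 0.16, and there the nearest arrays of the groups (10.79 and 10.85) were separated by less than the Luc2 arrays were from each other. In M3-1, then, TUBB2B was above and TUBB3 below the parental level.

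RTN1 encodes reticulon 1, which shapes endoplasmic reticulum membranes, in neuroendocrine cells among others. Its brightest probe read 8.62 and 8.56 in Luc2, 7.55 and 7.43 in PT, 8.97 and 8.83 in M3-1, and 7.47 and 7.50 in M3-2. PT and M3-2 shared a low level and M3-1 the highest, as for TUBB2B. The differences from Luc2 were -1.10 in PT, 0.31 in M3-1 and -1.11 in M3-2, each ± 0.12 (SE), and M3-2 lay 2.67-fold below M3-1. A second, dimmer RTN1 probe read 6.85 and 6.70 in Luc2, 6.70 and 6.64 in PT, 7.06 and 7.13 in M3-1, and 6.69 and 6.76 in M3-2. It too was highest in M3-1, by 0.32 ± 0.12 over Luc2, but its differences in PT (-0.11) and M3-2 (-0.05) were within 1 SE of 0. The third RTN1 probe was above background on 0 of 8 arrays.

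STMN1 (stathmin 1) binds tubulin dimers and promotes loss of microtubules, and it is common in dividing cells as well as in neurons. Its brightest probe read 10.68 and 11.14 in Luc2, 11.06 and 11.34 in PT, 11.13 and 11.03 in M3-1, and 10.51 and 10.92 in M3-2. Luc2 overlapped each derivative, and the differences from it were 0.29, 0.17 and -0.19, each ± 0.18 (SE). Leaving out 1 array at a time moved the difference in M3-1 between -0.06 and 0.40 and that in M3-2 between -0.42 and 0.04, so no direction can be given for STMN1. A second probe read from 7.56 to 8.63 within Luc2 alone and had an SE of 0.32, with both M3-1 arrays (8.76 and 8.87) above Luc2 and PT and M3-2 overlapping it. Of the other 3 probes, 1 was above background on 2 arrays and the others on 0.

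**Figure D2:**
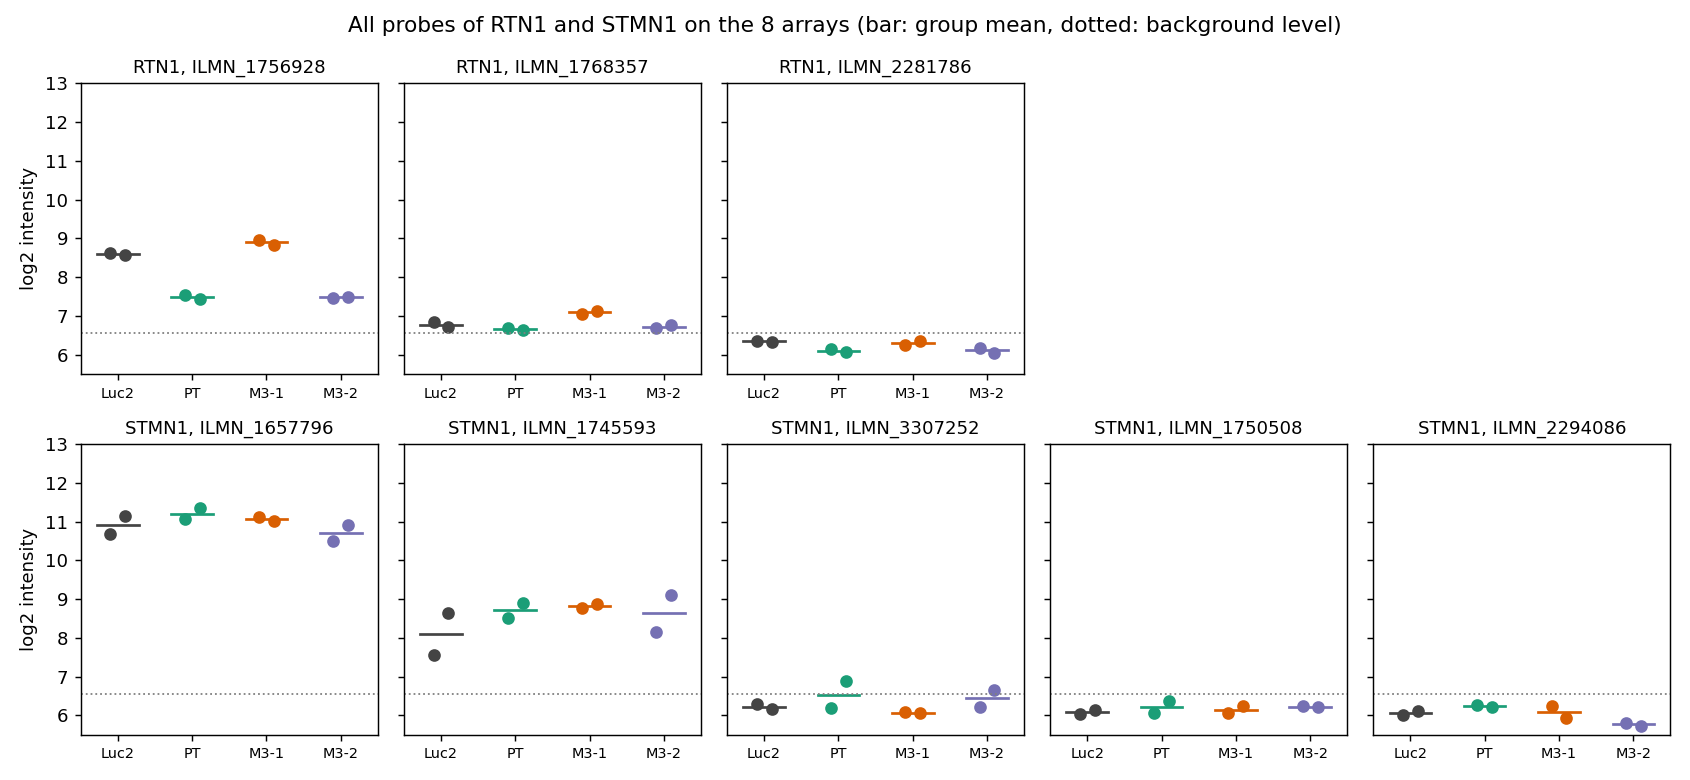
Log2 intensity (y axis) of the 3 RTN1 probes (top) and the 5 STMN1 probes (bottom) in the 4 groups (x axis). Points are arrays, bars group means and the dotted line the background level. The brightest RTN1 probe falls in PT and M3-2 and the second one is nearly level there, and on the brightest STMN1 probe the Luc2 arrays overlap those of each derivative.

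PNMA2 encodes a paraneoplastic antigen of neurons, a protein with a domesticated retrotransposon Gag fold. Its probe read 9.52 and 9.49 in Luc2, 7.19 and 7.21 in PT, 7.76 and 7.69 in M3-1, and 6.83 and 6.59 in M3-2. It was lower in all 3 derivatives than in Luc2, with no overlap between any groups, and it was lowest in M3-2, where it lay close to background. The differences from Luc2 were -2.30 in PT, -1.77 in M3-1 and -2.79 in M3-2, each ± 0.13 (SE), which are levels 4.93-fold, 3.42-fold and 6.94-fold lower.

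ENO2 is the neuronal enolase of glycolysis and UCHL1 a neuronal ubiquitin hydrolase. ENO2 read 10.01 and 10.00 in Luc2, 9.26 and 9.47 in PT, 9.71 and 9.81 in M3-1, and 9.19 and 9.33 in M3-2. All 3 derivatives were below both Luc2 arrays, by differences of -0.64, -0.24 and -0.74, each ± 0.13 (SE), and M3-2 and PT overlapped. UCHL1 read between 6.22 and 6.54 on the 8 arrays and was above background on 0 of them, so no difference is given for it.

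**Figure D3:**
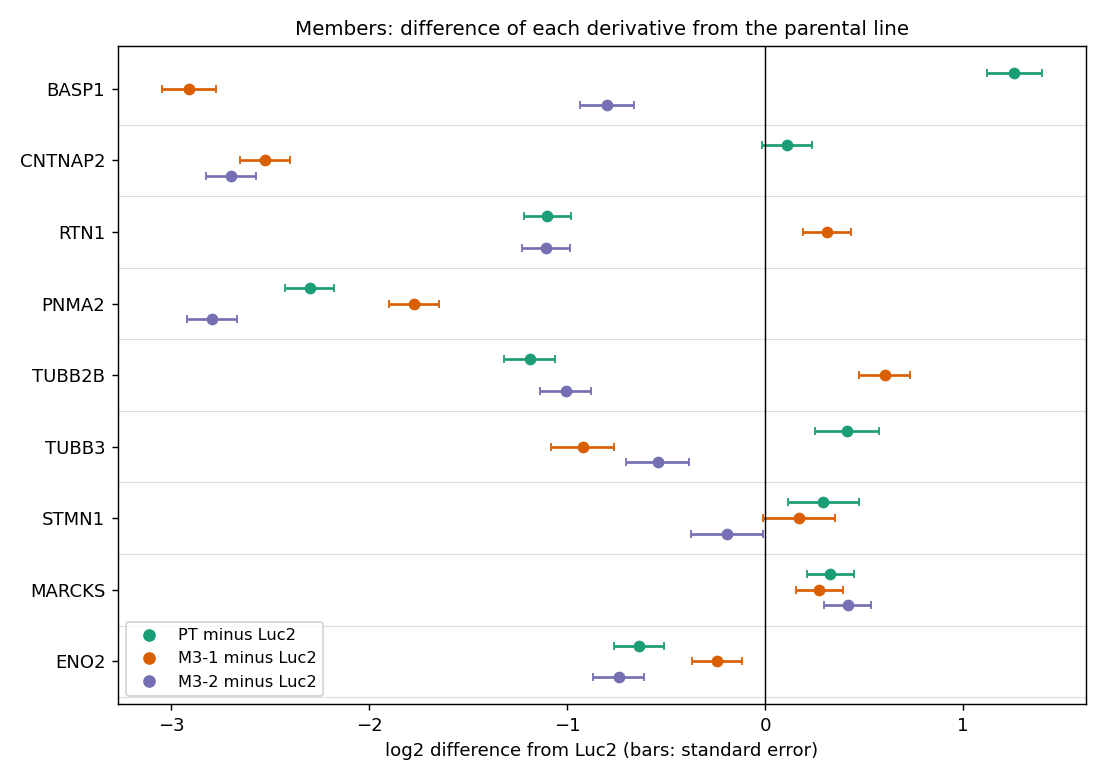
Log2 difference from Luc2 (x axis) of the 9 genes above background (y axis) in PT, M3-1 and M3-2, on the brightest probe. Points are differences of group means and bars standard errors from the fit to 8 arrays. BASP1 in M3-1 (-2.91), PNMA2 in M3-2 (-2.79) and CNTNAP2 in both metastatic lines (-2.53 and -2.70, the second measured at background) reach farthest below Luc2, and TUBB2B and RTN1 are above it in M3-1 only.

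Counting differences of at least 2-fold, 4 of the 9 genes passed in PT against Luc2 (1 higher and 3 lower), where 1.34% of all 12244 genes above background did. In M3-1 against Luc2 it was 3 of 9, all lower, with 2.38% of all genes, and in M3-2 against Luc2 4 of 9, all lower, with 2.98% of all genes. Between the metastatic lines 4 of 9 differed (BASP1 higher in M3-2 and TUBB2B, RTN1 and PNMA2 lower), with 0.604% of all genes. The median log2 difference of the 9 genes was 0.11 in PT, -0.24 in M3-1 and -0.80 in M3-2 against Luc2. The medians over all genes were 0.0044, 0.0039 and -0.0045. As these genes were chosen for such differences, nothing is read from the counts, and the 3 comparisons with Luc2 share its arrays. The members nearest to the 2-fold mark were TUBB2B in M3-2 against Luc2 (2.01-fold) and PNMA2 in M3-2 against M3-1 (2.03-fold) above it, and TUBB3 in M3-1 against Luc2 (1.90-fold) below it.

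PT against Luc2 and M3-2 against M3-1 are 2 comparisons with no array in common. BASP1 was higher in both (1.26 and 2.11), as were TUBB3 (0.41 and 0.38) and MARCKS (0.33 and 0.14). TUBB2B (-1.19 and -1.61), RTN1 (-1.10 and -1.42), PNMA2 (-2.30 and -1.02) and ENO2 (-0.64 and -0.50) were lower in both. CNTNAP2 (0.11 and -0.17, SE 0.13) and STMN1 (0.29 and -0.36, SE 0.18) differed in sign, but CNTNAP2 was at background on both M3-2 arrays and on 1 of 2 M3-1 arrays, so its second value has no settled direction. Pearson's r between the 2 comparisons, measured values at background included, was 0.836 across the 9 genes and 0.109 across all 12244 genes, as a description across genes, which are not replicates, and of genes chosen for how they differ. Another pair with no shared array was M3-1 against Luc2 and M3-2 against PT. There r was 0.884 across the 9 genes and 0.458 across all genes. For the remaining such pair, M3-2 against Luc2 and M3-1 against PT, r was not computed. BASP1 (-0.80 and -4.17), CNTNAP2 (-2.70, at background, and -2.64), TUBB3 (-0.54 and -1.34) and STMN1 (-0.19 and -0.12) were lower in both. RTN1 (-1.11 and 1.41), TUBB2B (-1.01 and 1.79), PNMA2 (-2.79 and 0.53) and ENO2 (-0.74 and 0.39) differed in sign. MARCKS did too (0.42 and -0.05, SE 0.12).

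**Figure D4:**
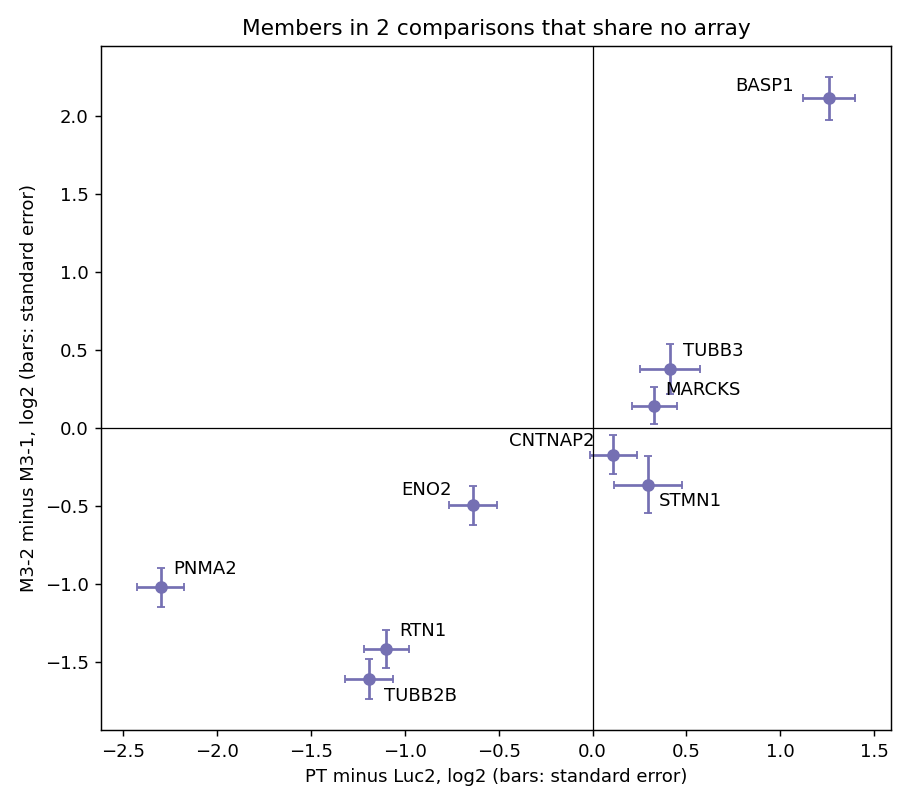
Log2 difference PT minus Luc2 (x axis) against M3-2 minus M3-1 (y axis) for the 9 genes above background. Points are differences of group means and bars standard errors. BASP1 lies at the upper right (1.26 and 2.11), and TUBB2B, RTN1, PNMA2 and ENO2 lie below 0 on both axes.

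The genes most like each member were sought among 561 genes whose group means spanned at least 1 on the log2 scale, by Pearson's r of the log2 intensity over the 8 arrays. The arrays of a group pull such values up together, so they describe the order of the groups. BASP1 was most like HPGD (r = 0.977), which inactivates prostaglandins, then SMARCA1 (0.957) and SERHL2 (0.955). CNTNAP2 was most like the Notch receptor NOTCH3 (0.996), the potassium channel partner KCNIP3 (0.990) and the integrin subunit ITGA5 (0.990). RTN1 and TUBB2B were each the other's nearest gene (0.985). ASB9 (0.952) and ZBTB20 (0.940) came next for RTN1, and the complement component C5 (0.933) and the immediate early factor EGR1 (0.926) for TUBB2B. PNMA2 was most like the matricellular protein gene CCN3 (0.991), HABP2 (0.980) and CPNE8 (0.978), and TUBB3 most like DPYSL4 (0.989), VEGFB (0.983) and ALDH3A2 (0.980). Among the members themselves TUBB3 was like BASP1 (0.919) and CNTNAP2 (0.888), while BASP1 and TUBB2B ran in opposite order (-0.769).

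Genes of the same families and pathways were tested with limma and the Benjamini-Hochberg adjustment over all 22274 probes above background. A gene took the call of its brightest probe and was called at an adjusted p below 0.05. The 8 lists held 98 genes on the array, 72 of them above background. In PT 2 of the 72 rose and 5 fell against Luc2, where 3.05% of all genes rose and 2.92% fell. In M3-1 9 rose and 12 fell, with 3.94% and 4.97% of all genes, and in M3-2 7 rose and 10 fell, with 5.34% and 5.78% of all genes. Between M3-2 and M3-1 1 was higher and 3 were lower in M3-2, with 1.19% and 0.866% of all genes. The median log2 difference of the 72 was -0.03 in PT, -0.03 in M3-1, -0.07 in M3-2 and -0.03 between the metastatic lines. The PT count fell to 4 without PT replicate 1 or without PT replicate 2. The M3-1 count fell to 11 without either M3-1 array, and the M3-2 count to 11 without M3-2 replicate 1. Between the metastatic lines 0 of the 4 calls were left without M3-1 replicate 1, M3-1 replicate 2 or M3-2 replicate 1, and 1 without M3-2 replicate 2, where 1242 genes of 12244 had an unadjusted p below 0.05 on all arrays. Settings other than an array left out also ended calls of TUBB2A, TUBG1, MAPT, RTN2, PNMA3, ENO3, PRPH, NEFL, MYCN, ONECUT2 and POU3F2, as listed with the processing alternatives.

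Of 16 measured tubulins other than TUBB2B and TUBB3, 0 were called in PT or M3-2 against Luc2. In M3-1 2 rose, with 3.94% of all genes. At an unadjusted p below 0.05 there were 3 in PT and 4 in M3-2 (limma), where 2445 and 2817 of all 12244 genes passed. TUBB2A read 9.39 and 9.18 in Luc2, 9.49 and 9.29 in PT, 10.35 and 10.22 in M3-1, and 9.55 and 9.54 in M3-2. M3-1 stood above all other arrays, by 1.00 ± 0.13 over Luc2 (limma, adjusted p = 0.00041). M3-2 was below M3-1 by a log2 difference of -0.74 (limma, adjusted p = 0.0131), a call lost without any 1 of these 4 arrays (adjusted p from 0.0793 to 0.257). TUBG1, the gamma-tubulin of the centrosome, rose in M3-1 by 0.57 (limma, adjusted p = 0.0196), lost without Luc2 replicate 2 or either M3-1 array (adjusted p from 0.0801 to 0.185).

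Of 14 measured genes whose products bind microtubules, 2 rose and 1 fell in PT. In M3-1 3 rose and 4 fell, and in M3-2 2 rose and 3 fell. Of all genes 3.05% rose and 2.92% fell in PT, 3.94% and 4.97% in M3-1, and 5.34% and 5.78% in M3-2. MAP1B, an axonal microtubule-associated protein, read 7.14 and 6.67 in Luc2, 8.50 and 8.28 in PT, 7.67 and 7.82 in M3-1, and 8.13 and 8.38 in M3-2. It was above Luc2 on all 6 derivative arrays, by 1.48 in PT (limma, adjusted p = 0.000201), 0.84 in M3-1 (0.00741) and 1.35 in M3-2 (0.000191), and the M3-1 call was lost without M3-1 replicate 1 or 2 (adjusted p 0.0542 and 0.114). MAPT (tau) read 7.19 and 7.09 in Luc2 and 7.59 and 7.67 in PT, and it was at background on all 4 metastatic arrays, with measured means of 6.03 in M3-1 and 6.34 in M3-2. It was at least 1.50-fold lower in each metastatic line than in Luc2 (limma, adjusted p = 9.48e-05 in M3-1 and 0.00105 in M3-2). In PT its difference from Luc2 was 0.49 (adjusted p = 0.0389), lost without Luc2 replicate 2 or either PT array (adjusted p from 0.0855 to 0.234). Like CNTNAP2, MAPT was above background in Luc2 and PT and at it in M3-2.

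STMN3, a stathmin of neurons, fell in both metastatic lines, by log2 differences of -1.16 in M3-1 (limma, adjusted p = 0.00142) and -0.90 in M3-2 (0.00649), the second lost without M3-2 replicate 1 (0.0723). It read 13.20 and 12.57 in Luc2 and between 11.62 and 12.03 on the 4 metastatic arrays. MAP2, of dendrites, rose in M3-1 by 0.93 (limma, adjusted p = 0.00234), from 7.72 and 7.38 in Luc2 to 8.53 and 8.44.

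Among 8 growth-cone and adhesion membrane proteins measured, 0 rose in any derivative, 1 fell in PT and 3 fell in each metastatic line. At an unadjusted p below 0.05 (limma), 1 was higher and 2 lower in PT, 2 higher and 3 lower in M3-1, and 1 higher and 4 lower in M3-2. Of all 12244 genes, 2445, 2518 and 2817 passed that level in PT, M3-1 and M3-2, in either direction. At the adjusted level 2.92% of all genes fell in PT, 4.97% in M3-1 and 5.78% in M3-2. NRCAM, an axonal adhesion molecule of the L1 family, read 8.57 and 8.96 in Luc2, 7.11 and 7.28 in PT, 7.01 and 7.23 in M3-1, and 6.65 and 6.49 in M3-2. The log2 differences were -1.56 (limma, adjusted p = 7.35e-05), -1.64 (2.54e-05) and -2.19 (1.96e-06), and all 3 calls held in each fit that left out 1 array. PALM (paralemmin, a lipid-anchored membrane protein) and GPM6B (a tetraspan membrane glycoprotein) fell in both metastatic lines. PALM differed by -1.25 in M3-1 (limma, adjusted p = 0.000105) and was at least 2.46-fold lower in M3-2 (4.61e-05), where both arrays were at background. GPM6B differed by -1.08 in M3-1 (limma, adjusted p = 0.000347) and was at least 2.03-fold lower in M3-2 (5.25e-05). In PT these 2 genes were not called.

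Relatives of RTN1, PNMA2, ENO2 and UCHL1 were tested as well. Of 7 other genes, reticulons together with receptors and partners of the reticulon RTN4, 1 fell. This was RTN2 in M3-1 (-0.59, limma, adjusted p = 0.0469), a call lost without Luc2 replicate 1 or either M3-1 array. In M3-2 RTN2 differed from Luc2 by nearly as much (-0.55) and was not called (limma, adjusted p = 0.0541). Of 4 other PNMA genes 1 fell, PNMA3 in M3-1, at least 1.17-fold lower (limma, adjusted p = 0.0382). There its probe was at background on both arrays, and the call was lost without any 1 of the 4 arrays compared (0.0536 to 0.261). ENO3, the muscle enolase, fell in M3-1 (-0.64, limma, adjusted p = 0.0258) and M3-2 (-0.82, 0.00517), the first lost without Luc2 replicate 1 or either M3-1 array (0.102 to 0.211) and the second without M3-2 replicate 1 (0.0775). UCHL5, a ubiquitin hydrolase of the proteasome, rose in M3-2 by 0.69 (limma, adjusted p = 0.00793), lost without M3-2 replicate 1 (0.0962).

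Of 5 neuronal intermediate filament genes measured, 0 rose and 1 fell in PT. In M3-1 2 rose and 1 fell, and in M3-2 3 rose and 1 fell. Of all genes 3.05% rose and 2.92% fell in PT, 3.94% and 4.97% in M3-1, and 5.34% and 5.78% in M3-2. NEFH, the heavy neurofilament chain, read 9.25 and 9.09 in Luc2, 8.86 and 8.76 in PT, 10.54 and 10.65 in M3-1, and 10.31 and 10.47 in M3-2. It rose by 1.43 in M3-1 (limma, adjusted p = 1.49e-05) and 1.22 in M3-2 (4.71e-05), and both calls held with each array left out. PRPH (peripherin) rose in M3-1 by 0.84 (limma, adjusted p = 0.00213) and in M3-2 by 0.58 (0.0182), the second lost without Luc2 replicate 2 or either M3-2 array (0.0769 to 0.0979). NEFL, the light chain, rose in M3-2 by 0.57 (limma, adjusted p = 0.0145). It was at background on both M3-1 arrays, so M3-2 was at least 1.59-fold higher than M3-1 (0.011), with measured means of 7.22 and 6.48. The first call was lost without Luc2 replicate 2 or either M3-2 array (0.0508 to 0.0947) and the second without any 1 of its 4 arrays (0.0715 to 0.232). NES (nestin), a filament of neural progenitors, fell in all 3 derivatives, by log2 differences of -0.82 in PT (limma, adjusted p = 0.00239), -1.23 in M3-1 (5.48e-05) and -1.22 in M3-2 (5.11e-05).

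**Figure D5:**
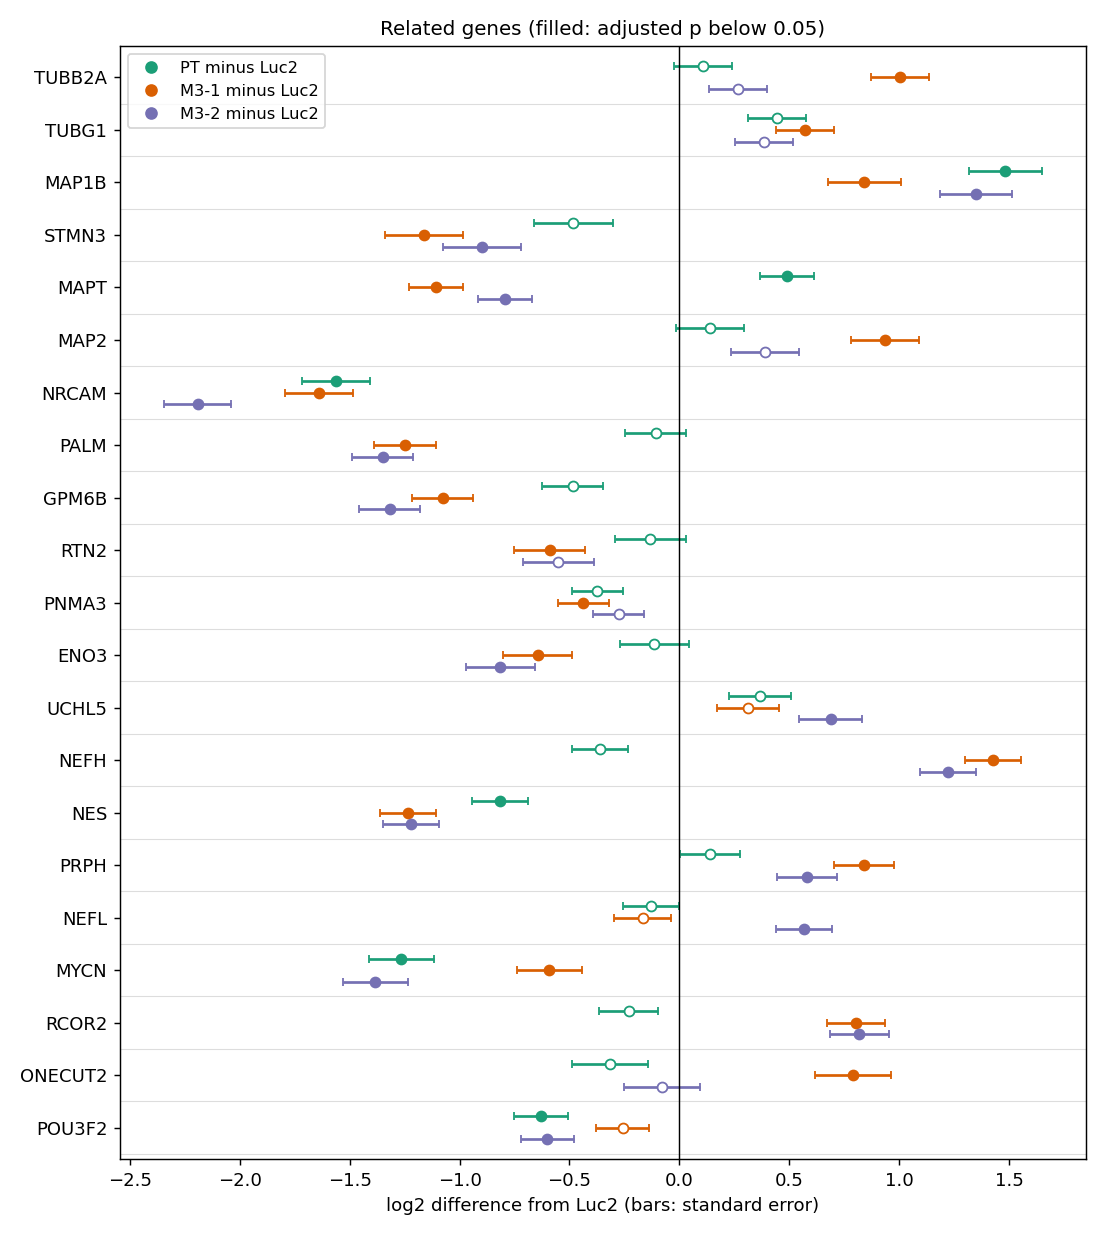
Log2 difference from Luc2 (x axis) of 21 related genes (y axis) in PT, M3-1 and M3-2. Points are differences of group means, bars standard errors, and filled points have an adjusted p below 0.05. Groups at background are plotted at their measured means. NRCAM, NES and MYCN are below Luc2 and MAP1B above it in all 3 derivatives, while NEFH is above it in M3-1 and M3-2 (1.43 and 1.22).

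Of 14 measured regulators of neuronal genes, transcriptional and RNA-binding ones together, 0 rose and 2 fell in PT. At an unadjusted p below 0.05 (limma), 1 was higher and 7 lower in PT, where 2445 of all 12244 genes passed in either direction. In M3-1 2 rose and 1 fell (3.94% and 4.97% of all genes), and in M3-2 1 rose and 2 fell (5.34% and 5.78%). MYCN, a MYC-family factor of neuroendocrine prostate cancer and neuroblastoma, read 8.39 and 7.99 in Luc2, 6.99 and 6.86 in PT, 7.53 and 7.66 in M3-1, and 6.89 and 6.72 in M3-2. It fell in PT (-1.26, limma, adjusted p = 0.000299), M3-1 (-0.59, 0.0301) and M3-2 (-1.38, 6.03e-05), and like TUBB2B and RTN1 it was lower in M3-2 than in M3-1 (-0.79, 0.018). The M3-1 call was lost without Luc2 replicate 1 or either M3-1 array (0.121 to 0.279), and the call between the metastatic lines without any 1 of 4 arrays (0.0941 to 0.292). RCOR2, a corepressor of the CoREST family, rose in M3-1 (0.80, limma, adjusted p = 0.00243) and M3-2 (0.82, 0.00166). ONECUT2, a homeodomain factor, rose in M3-1 on its brightest probe (0.79, limma, adjusted p = 0.014). That call was lost without Luc2 replicate 1 or either M3-1 array (log2 differences from 0.59 to 0.81). Its other probes did not all rise. Another bright probe had means of 8.55 in Luc2 and 8.50 in M3-1, with overlapping arrays, and a further bright probe 9.52 and 9.97. The dimmer probes had means of 7.02, 6.87 and 6.67 in Luc2 and 7.43, 7.06 and 6.72 in M3-1. On the brightest probe ONECUT2 was lower in M3-2 than in M3-1 (-0.87, limma, adjusted p = 0.0245). This call was lost without either M3-1 array or M3-2 replicate 1 (log2 differences from -0.89 to -0.68). POU3F2 (BRN2), a factor of neural progenitors, fell in PT (-0.63, limma, adjusted p = 0.00969), lost without either PT array (0.0773 and 0.0898), and in M3-2 (-0.60, 0.00717), lost without M3-2 replicate 1 (0.0732).

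Marker genes of cell types and states were read beside these results. Of 8 prostate epithelial markers on the array 7 were above background in every group, and KLK3 was below it in all 4. The luminal keratin KRT18 rose in PT (0.86), M3-1 (0.71) and M3-2 (1.11), KRT8 rose in M3-2 (0.99), and the serine protease TMPRSS2 fell in M3-1 (-0.95) and M3-2 (-0.91), by the same limma test. Of 10 neuroendocrine markers on the array, 8 were above background in Luc2 and PT, 6 in M3-1 and 7 in M3-2. Of those 8, 0 rose in any derivative, and 4 fell in PT, 5 in M3-1 and 4 in M3-2 (limma). At an unadjusted p below 0.05 (limma), 0 were higher and 6 lower in each derivative. Of all 12244 genes, 2445 in PT, 2518 in M3-1 and 2817 in M3-2 passed that level in either direction. At the adjusted level 2.92% of all genes fell in PT, 4.97% in M3-1 and 5.78% in M3-2. The mean of the 8 neuroendocrine markers, readings at background included, was 8.44 to 8.54 on the Luc2 arrays and 7.78 to 7.87 in PT. It was 7.42 to 7.44 in M3-1 and 7.55 to 7.57 in M3-2. SYT1 and NCAM1 were below background in all groups. Of 8 neuron and glia markers on the array, the neuronal RBFOX3 and the glial SOX10, S100B and GFAP were below background in every group. The neuronal SLC17A7, GAD1 and SYN1 were above it in every group, and NEFL on both arrays of Luc2 and M3-2. SLC17A7, a glutamate transporter of synaptic vesicles, fell in PT (-0.64, limma, adjusted p = 0.0272), M3-1 (-1.02) and M3-2 (-0.76), while GAD1 and SYN1 were not called. Of 14 proliferation genes, 0 were called by limma in any of these comparisons, and their array means lay between 10.7 and 10.9. At an unadjusted p below 0.05 (limma) there were 2 in each comparison with Luc2. Between the metastatic lines there were 4, where 1242 of all 12244 genes passed. All 5 endothelial markers and, among the leukocyte markers, PTPRC and CD3E were below background. The leukocyte markers CD68 and CD14 were above it on 8 arrays and LYZ on 7, with CD68 group means from 10.2 to 10.6. Of 8 stromal markers 4 were above background in Luc2 and PT and 5 in M3-1 and M3-2, COL1A2, COL3A1 and PDGFRB were below it throughout, and the array means were 7.29 and 7.30 in Luc2, 7.63 and 7.70 in PT, 8.31 and 8.38 in M3-1, and 8.41 and 8.49 in M3-2. LUM (lumican, a matrix proteoglycan) moved most with these means, from 6.55 and 7.21 in Luc2 to 8.01 and 8.76 in PT, 11.41 and 11.17 in M3-1, and 11.52 and 11.85 in M3-2. It was the 1 stromal marker called in PT and in M3-1, and in M3-2 LUM, DCN and TAGLN were higher and ACTA2 lower (limma). The part of these markers in the differences of the neuronal genes was not tested. Between the arrays of a group the correlation over the 12244 genes above background was 0.987 in Luc2, 0.995 in PT, 0.997 in M3-1 and 0.993 in M3-2. On each array 42.9% to 43.0% of probes were above background, a share that the common distribution of the arrays sets.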

How the data were processed

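Total RNA purified on columns was labelled as biotinylated cRNA and hybridised to Illumina bead arrays, 8 arrays in 4 groups of 2, per the labels. The authors deposited log2 intensities for 47320 probes, and the software, background correction and normalization used were not given in the sources used here. In the deposited log2 values, the arrays share 1 distribution to within 0.012 at any rank, as after quantile normalization. A second deposited table has 16 columns of per-sample values whose names match no sample, so these were not used and detection p-values could not serve as the filter. The number of arrays limits the precision.

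The background level was 6.55, the mode of all values (6.12) plus a margin that a share of 0.01 of a background with an SD of 0.184 exceeds. The 22274 probes above it on at least 2 arrays were fitted with limma 3.58.1 in R 4.3.3 (lmFit with 4 group means, eBayes, 4 residual and 8.01 prior degrees of freedom), with Benjamini-Hochberg adjustment over them all. The procedure was tested on simulated data. GEO's platform annotation named 30112 probes with 1 symbol, 8 with several and 17200 with none, which left 12244 genes above background, each taken by its brightest probe. A fold against a group at background on both arrays was computed against the background level and is given as "at least". Promoter sequences and motif counts came from RefSeq tables.

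The members and the gene lists were chosen with earlier results of these data known, and no p is given for a member. Every member is named. From each related list, up to 4 genes with the largest difference from Luc2 among those called in M3-1 or M3-2 are named, and for each member whose group means span at least 1, the 3 genes most like it. Alternatives covered the filter, the probes per gene, the arrays fitted, array weights, an intensity trend, centring, background subtraction, the replicate number as a block and each array left out.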

Additional observations from a re-analysis of the deposited data

Results flagged for a closer look

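On the brightest probe of each gene, the 2 metastatic lines differed in the direction of their change from Luc2 for RTN1 and TUBB2B. Both M3-1 arrays were above both Luc2 arrays and both M3-2 arrays below them. The second RTN1 probe differed by only -0.05 ± 0.12 (SE) in M3-2 from Luc2, with overlapping arrays. On the brightest probes the values were as follows. The log2 difference M3-2 minus M3-1 was -1.42 for RTN1 and -1.61 for TUBB2B, and because these genes were chosen for such differences it was not tested. Among the related genes the difference between the lines passed the limma test for TUBB2A (-0.74), NEFL (0.73), MYCN (-0.79) and ONECUT2 (-0.87). NEFL was at background on both M3-1 arrays, so its value stands only for an at least 1.59-fold higher level in M3-2. Of these calls 0 held in every fit that left out 1 array. No group had the 4 arrays that a search for an outlying array needs.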

How the results depend on the processing

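No called difference of a named related gene changed sign under any alternative run, and among the members' brightest probes above background only STMN1 did, when 1 array was left out. The members' differences moved by more than the spread between arrays in 13 cases, each with the background level subtracted. With it CNTNAP2 reached -4.12 in M3-1 and -4.37 in M3-2, PNMA2 -4.27 in M3-2 and BASP1 -3.48 in M3-1. Only this setting could pass that mark. Leaving out 1 of 2 arrays cannot shift a difference by more than this spread, and the other settings leave the difference nearly unchanged. The absence of other cases therefore says nothing on how stable the members are. With the arrays of the compared groups alone, 4 related and 305 of all genes were called in PT (7 and 732 with all arrays) and 839 of all genes in M3-2 (1362 with all arrays). Settings other than an array left out ended 20 calls of named related genes. With the compared groups alone these were MAPT (adjusted p = 0.141, limma) and POU3F2 (0.0657) in PT, TUBG1 (0.0637), RTN2 (0.0514), PNMA3 (0.0988) and MYCN (0.0758) in M3-1, and PRPH (0.0842), NEFL (0.0715) and POU3F2 (0.0507) in M3-2. With array weights they were MAPT in PT (0.0929) and PNMA3 in M3-1 (0.0639), and with probes of a mean above 7 RTN2 in M3-1 (0.0569). With the background level subtracted they were TUBG1 (0.0730), RTN2 (0.106), ENO3 (0.0698), MYCN (0.0882) and ONECUT2 (0.0661) in M3-1, PRPH in M3-2 (0.0644), and TUBB2A (0.0648) and ONECUT2 (0.117) between the metastatic lines. Array weights gave 444 of all genes between M3-2 and M3-1 (252 without). Leaving out 1 array at a time gave 4 to 10 related and 290 to 1128 of all genes in PT, 11 to 19 and 486 to 1349 in M3-1 (21 and 1092 with all arrays), 11 to 20 and 811 to 1692 in M3-2 (17 and 1362), and 0 to 1 and 65 to 179 between the metastatic lines (4 and 252). A lone array left in a group is assumed to vary like the other groups. Samples of the same replicate number did not deviate together in every pair of groups, so the numbers were not taken as pairs. The correlation of the replicate 1 minus replicate 2 differences was 0.505 for Luc2 and PT, 0.167 for Luc2 and M3-2 and 0.180 for PT and M3-2, but -0.157 for Luc2 and M3-1, -0.119 for PT and M3-1 and -0.016 for M3-1 and M3-2. With the replicate block 7, 21, 19 and 4 related genes were called in PT, M3-1, M3-2 and between the metastatic lines, and 944, 1261, 1529 and 311 of all genes. The cause of these changes was not tested. Dim probes limit CNTNAP2, PNMA2, MAPT, PALM and GPM6B, whose low groups lie near or at background.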
